A study of Mus musculus with 15 samples.

Results

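A set of 7 hepatic genes of drug and steroid metabolism were followed across cultured mouse hepatocytes, namely Cyp2a4, Cyp2a5, Cyp2b9, Cyp2b10, Cyp2b13, Nr1i3 and Por. They were taken by symbol, 7 of the 38087 gene rows of a raw exon count table, and were chosen with earlier results of these data known. RNA had been sequenced from cryopreserved primary hepatocytes of CD-1 mice, an outbred strain, in 13 usable libraries of 5 groups. Male cells in serum of conventionally raised (ConvR) male mice made up 3 libraries (m_pHep_m_ConvR). Female cells in serum of germ-free (GF) female mice with growth hormone (GH) made up 3 (f_pHep_f_GF_serum_GH), and female cells in GF female serum without it made up 2 (f_pHep_f_GF_serum). Female cells in ConvR male serum made up 3 (f_pHep_m_ConvR), and female cells in ConvR female serum made up 2 (f_pHep_f_ConvR). All cultures shared a medium with insulin and the glucocorticoid dexamethasone, a matrix overlay, 25% mouse serum for 24 h, and a final 2 h with mouse GH at 8 ng/ml or its saline vehicle. Each sex came as its own commercial donor stock, so that the sex of the cells and the donor cannot be told apart. The labels do not say whether replicates were separate cultures or serum pools, so p-values measure only the spread between these libraries, which may be technical.

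The constitutive androstane receptor CAR, encoded by Nr1i3, is a nuclear receptor that pairs with RXR and switches on drug-metabolising genes of the liver. Cyp2b10 is its classic target in mouse liver, and Cyp2a5 can also be induced by CAR activators. Cytochromes P450 insert oxygen into their substrates with electrons passed on by cytochrome P450 reductase, the product of Por. Cyp2a4, a steroid 15-alpha-hydroxylase, and Cyp2b9 and Cyp2b13 are known in mice as genes with higher expression in female than in male liver, a pattern set by growth hormone.

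The 5 P450 genes lie in 1 cluster on the plus strand of chromosome 7 (mm10, GENCODE M21): Cyp2b10 at chr7:25897620-25926624, Cyp2b13 at chr7:26061497-26096197, Cyp2b9 at chr7:26173411-26210661, Cyp2a4 at chr7:26307169-26315088 and Cyp2a5 at chr7:26835305-26843548. Nr1i3 lies at chr1:171213970-171220701 and Por at chr5:135670033-135735326, both on the plus strand. The promoter windows of the cluster are printed because genes with nearly the same window had unlike levels below. Each runs from 250 bases before the start site to 50 after it (RefSeq, GRCm38.p6, plus strand, 5′ to 3′), and all 7 genes had an entry. Capitals mark the bases at which Cyp2a4 and Cyp2a5 differ, those at which Cyp2b9 and Cyp2b13 differ, and in Cyp2b10 the word TTGCATAA.
Cyp2a4: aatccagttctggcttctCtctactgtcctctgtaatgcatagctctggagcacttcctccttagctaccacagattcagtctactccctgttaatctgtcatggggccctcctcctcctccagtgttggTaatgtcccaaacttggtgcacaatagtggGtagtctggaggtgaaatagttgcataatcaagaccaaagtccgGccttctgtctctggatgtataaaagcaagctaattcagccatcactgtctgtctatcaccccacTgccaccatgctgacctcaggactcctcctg
Cyp2a5: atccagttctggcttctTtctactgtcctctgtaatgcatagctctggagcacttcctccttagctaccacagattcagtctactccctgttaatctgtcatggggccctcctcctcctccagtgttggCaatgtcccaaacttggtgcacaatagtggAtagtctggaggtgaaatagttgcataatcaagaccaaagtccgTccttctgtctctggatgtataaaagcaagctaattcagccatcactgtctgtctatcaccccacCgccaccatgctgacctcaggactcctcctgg
Cyp2b9: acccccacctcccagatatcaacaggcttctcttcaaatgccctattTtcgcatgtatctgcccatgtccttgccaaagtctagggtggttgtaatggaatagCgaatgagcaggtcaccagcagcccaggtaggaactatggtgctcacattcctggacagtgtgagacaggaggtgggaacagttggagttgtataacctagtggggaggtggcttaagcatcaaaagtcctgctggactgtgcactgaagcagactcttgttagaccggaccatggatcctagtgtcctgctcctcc
Cyp2b13: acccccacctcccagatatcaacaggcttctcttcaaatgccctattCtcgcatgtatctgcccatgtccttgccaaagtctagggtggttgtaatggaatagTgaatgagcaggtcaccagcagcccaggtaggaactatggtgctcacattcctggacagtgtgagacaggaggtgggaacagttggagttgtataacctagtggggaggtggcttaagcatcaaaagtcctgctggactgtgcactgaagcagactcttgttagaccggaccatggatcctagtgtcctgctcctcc
Cyp2b10: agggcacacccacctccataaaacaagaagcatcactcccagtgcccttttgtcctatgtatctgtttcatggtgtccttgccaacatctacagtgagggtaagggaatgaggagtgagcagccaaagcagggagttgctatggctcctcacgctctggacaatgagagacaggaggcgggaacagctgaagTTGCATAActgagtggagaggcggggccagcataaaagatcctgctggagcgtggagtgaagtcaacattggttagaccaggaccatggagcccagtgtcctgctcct
These windows are chr7:26306942-26307241 for Cyp2a4, chr7:26835089-26835388 for Cyp2a5, chr7:26173159-26173458 for Cyp2b9, chr7:26061245-26061544 for Cyp2b13 and chr7:25897408-25897707 for Cyp2b10.

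Cyp2a4 and Cyp2a5 differed at 5 of 299 aligned bases (98.3% identity), as C19T, T131C, G161A, G205T and T270C, with the base of Cyp2a4 first and positions counted from 1 at the left end of its window. Cyp2b9 and Cyp2b13 differed at 2 of 300 bases (99.3% identity), T48C and C104T, with the base of Cyp2b9 first. Cyp2b10 stood further off, with 66 differences in 289 bases from Cyp2b9 and as many from Cyp2b13 (77.2% identity). On either strand, the TATA box TATAAA was found in the windows of Cyp2a4 and Cyp2a5 and in none of the other 5, against 13.6% of 32851 promoters of the same length. A nuclear receptor half-site, AGGTCA, was found in Cyp2a4, Cyp2a5, Cyp2b9 and Cyp2b13, against 16.3% of all promoters. In Cyp2a4 and Cyp2a5 it lay past the start site, at positions 31 and 30, on the minus strand. In Cyp2b9 and Cyp2b13 it lay 138 bases before the start on the plus strand. Windows of a pair are nearly the same, so a match in both genes of a pair is not a separate find. The half-site repeat spaced by 4 bases, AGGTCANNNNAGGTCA, and the STAT-type word TTCNNNGAA were in none of the 7 windows, against 0.0152% and 8.30% of all promoters. At such low shares, absence from 7 windows cannot set these genes apart from others. Inexact repeats and sequence outside the windows were not searched. TTGCATAA, a word chosen after these windows had been read, was in Cyp2a4, Cyp2a5 and Cyp2b10, 70, 71 and 58 bases before the start, against 0.743% of all promoters. A match is a run of letters and not a binding site.

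Levels are given in CPM (read counts scaled to a common library size) after TMM, a normalisation that balances the bulk of genes between libraries. In a bulk culture, fewer cells of a type and less RNA per cell cannot be told apart. Cyp2a5, a coumarin 7-hydroxylase, stood at 27.2, 29.998 and 28.1 CPM in male cells. In female cells it had 145, 113 and 116 CPM in GF serum with GH, 94.9 and 108 CPM in GF serum, 100.2, 145 and 119.7 CPM in ConvR male serum, and 151 and 111 CPM in ConvR female serum. The male libraries were all lower than the female ones, and the 4 female groups overlapped. Cyp2a4 stood at 0.676, 0.604 and 0.144 CPM in male cells, from 22, 22 and 5 counts. Female cells had 13.1, 13.2 and 13.0 CPM of Cyp2a4 in GF serum with GH, 11.9 and 10.3 CPM in GF serum, 9.78, 10.3 and 9.94 CPM in ConvR male serum, and 18.6 and 21.7 CPM in ConvR female serum. Here ConvR female serum stood above every other group, the libraries with GH came next, and GF serum and ConvR male serum overlapped.

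Among the CYP2B genes, whose products oxidise drugs and steroids, Cyp2b10 had 36.7, 34.3 and 30.6 CPM in male cells. In female cells it had 5.71, 7.17 and 6.09 CPM in GF serum with GH, 6.73 and 7.05 CPM in GF serum, 7.12, 6.45 and 5.62 CPM in ConvR male serum, and 19.9 and 18.6 CPM in ConvR female serum. Cyp2b10 was thus the one P450 of the 5 that was highest in male cells, and within female cells ConvR female serum stood apart while the other 3 groups overlapped. Cyp2b9 had 0.307, 0.549 and 0.634 CPM in male cells, from 10, 20 and 22 counts. In female cells Cyp2b9 had 7.05, 6.63 and 7.11 CPM in GF serum with GH, 6.94 and 7.44 CPM in GF serum, 6.29, 8.01 and 6.35 CPM in ConvR male serum, and 8.49 and 9.09 CPM in ConvR female serum. All female libraries were above all male ones, and ConvR female serum was above the other female groups by a small margin. Cyp2b13 had 2.27, 2.25 and 1.76 CPM in male cells. In female cells it had 3.96, 3.63 and 4.18 CPM in GF serum with GH, 4.30 and 3.73 CPM in GF serum, 4.34, 4.25 and 4.10 CPM in ConvR male serum, and 5.91 and 4.53 CPM in ConvR female serum. Cyp2b13 kept the order of Cyp2b9 at both ends, with a narrower span: its highest group mean was 2.49 times its lowest, against 17.7 times for Cyp2b9.

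Nr1i3 had the fewest counts of the 7 in every female library, and 44 to 98 counts over the 13 libraries. It had 1.63, 1.76 and 1.96 CPM in male cells. Female cells had 1.61, 1.16 and 1.24 CPM of Nr1i3 in GF serum with GH, 1.30 and 1.34 CPM in GF serum, 1.58, 1.53 and 1.11 CPM in ConvR male serum, and 2.02 and 2.03 CPM in ConvR female serum. ConvR female serum again held the highest libraries, with male cells next. Por had 142, 134 and 137 CPM in male cells. In female cells it had 259, 231 and 222 CPM in GF serum with GH, 263 and 233 CPM in GF serum, 233, 242 and 232 CPM in ConvR male serum, and 270.1 and 259 CPM in ConvR female serum. Male cells were the lowest, and neighbouring female groups overlapped.

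**Figure D1:**
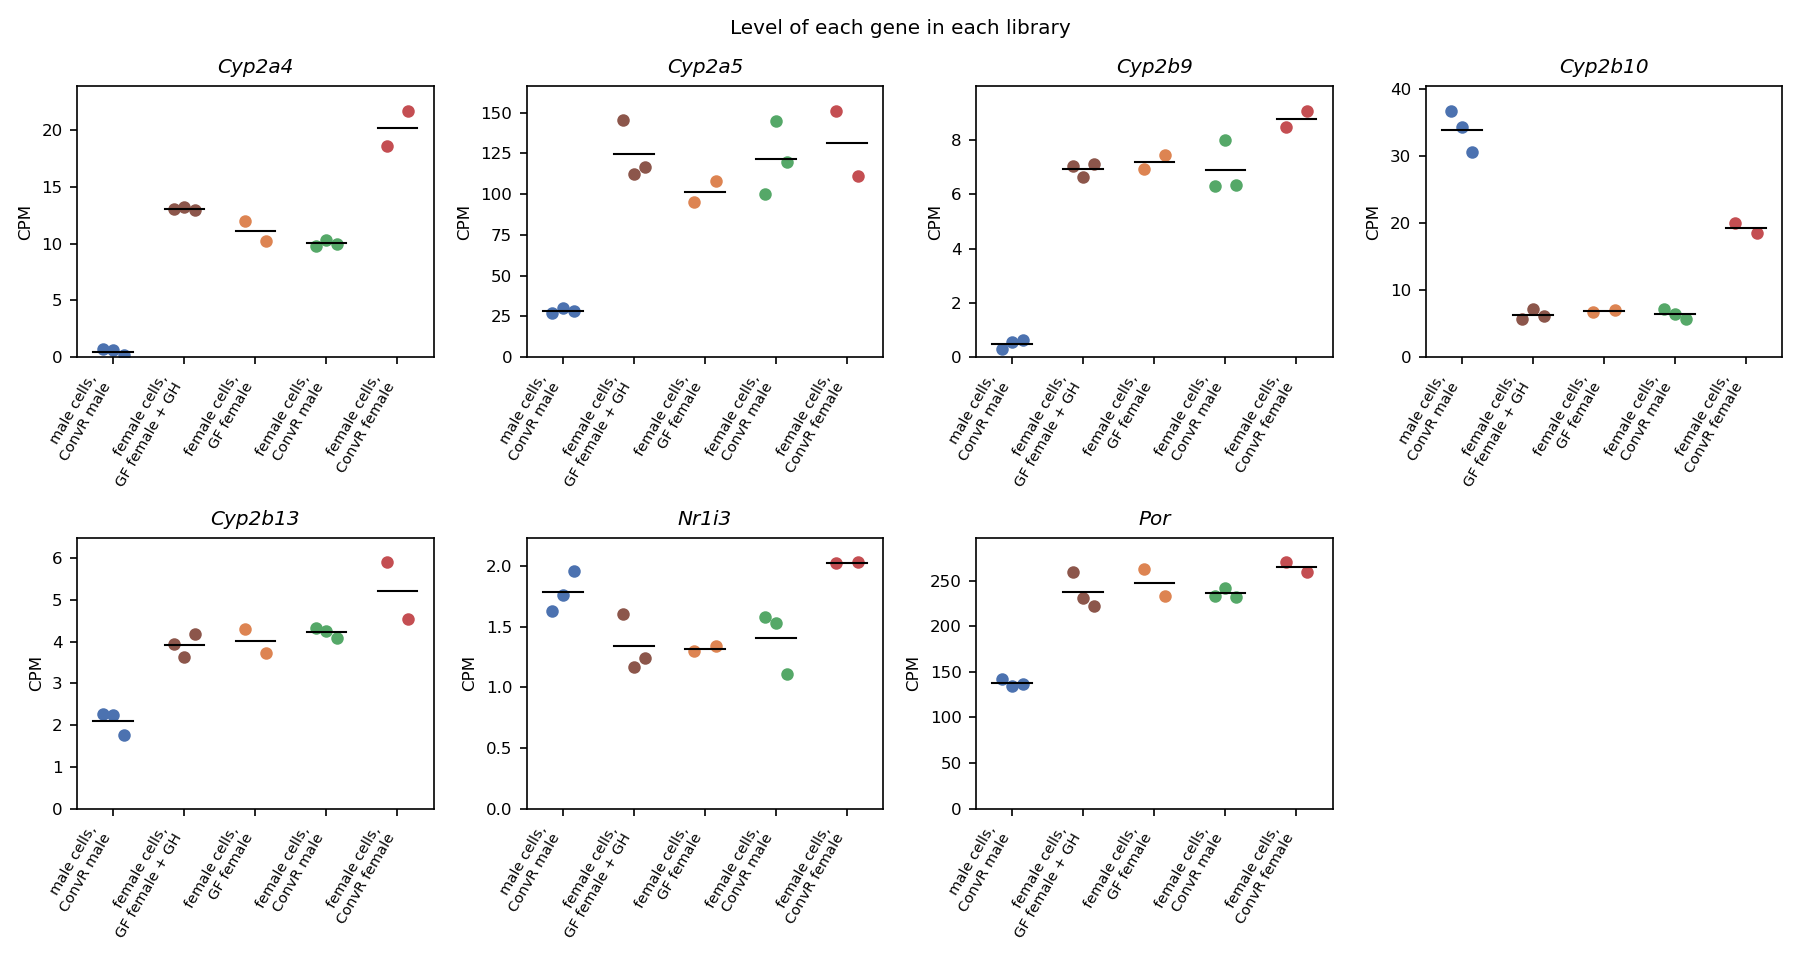
Level of each of the 7 genes in each library, in CPM on linear axes from 0, by group; points are libraries and bars are group means (n = 3 or 2). Cyp2b10 alone among the P450 genes is highest in male cells, and Cyp2a4 and Cyp2b10 stand higher in ConvR female serum than in the other female groups.

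How far the counts can be told from those of other genes differed between the members. Of all 100-base stretches of its transcripts, Cyp2a4 shared 11.2% with another gene, namely Cyp2a5, and Cyp2a5 shared 12.1%, with Cyp2a4 and the pseudogene Cyp2a21-ps. Cyp2b9 shared 1.18% with Cyp2b13, while Cyp2b13 shared 9.29%, most of it with the pseudogene Gm45225. Cyp2b10 and Por shared 0%. The counts of Cyp2a4 came to 0.513% to 2.48% of those of Cyp2a5 in male libraries and to 7.13% to 19.5% in the 10 female libraries, so that the low male level of Cyp2a4 is the value most exposed to reads of its neighbour. Nr1i3 is uncertain for another reason: 3304 bp, 74.9% of its annotated exon length, lie over Tomm40l, a mitochondrial import gene on the opposite strand, and the sources used here do not give the strand setting of the counting. Tomm40l held 716 to 1321 counts per library, and the counts of Nr1i3 were 5.46% to 8.12% of these in every library.

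The comparison of the sexes in the same serum asked how male cells differed from female cells when both had ConvR male serum (n = 3 each). Of the 7 genes, 1 rose and 5 fell in male cells. Of all 17405 genes tested, 36.7% were called, 17.6% higher and 19% lower, by edgeR's quasi-likelihood test with Benjamini-Hochberg adjustment at 0.05. Cyp2b10 averaged 33.9 ± 3.08 CPM in male cells and 6.397 ± 0.755 CPM in female cells (SD), 5.30-fold higher (log2 2.41 ± 0.109 SE, adjusted p = 7.65e-11). Every male library was above every female library of this gene. Cyp2a4 averaged 0.475 ± 0.289 CPM in male cells and 10.01 ± 0.277 CPM in female cells, 21.0-fold lower (log2 -4.39 ± 0.223, adjusted p = 2.83e-10). Cyp2b9 averaged 0.497 ± 0.170 CPM in male cells and 6.88 ± 0.974 CPM in female cells, 13.7-fold lower (log2 -3.77 ± 0.187, adjusted p = 2.08e-10). The partner of each in the promoter pairs moved less. Cyp2a5 was 4.27-fold lower in male cells (log2 -2.10 ± 0.138, adjusted p = 7.67e-09), and Cyp2b13 was 2.02-fold lower (log2 -1.01 ± 0.153, adjusted p = 7.55e-05). Summed with these partners, Cyp2a4 with Cyp2a5 stood at -2.19 and Cyp2b9 with Cyp2b13 at -2.10, both past the threshold.

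Por, the electron donor of the P450s, was 1.71-fold lower in male cells (log2 -0.78 ± 0.0660, adjusted p = 1.56e-07), at 138 ± 3.91 CPM against 236 ± 5.23 CPM in female cells. Nr1i3 did not pass the test, at 1.78 ± 0.167 CPM in male cells and 1.41 ± 0.256 CPM in female cells, a log2 difference of 0.34 with a 95% interval of -0.09 to 0.78 (adjusted p = 0.211). The groups of all 7 genes did not overlap, which held for 47.6% of all genes tested. The cultures also differed in markers of liver cells, summed in CPM over lists of 6 to 10 genes. Hepatocyte markers summed to 25573 to 26111 CPM in male cells and 13048 to 13825 CPM in female cells, with 8 of 10 higher and 1 lower. Endothelial markers summed to 73.7 to 75.9 CPM in male cells and 38.6 to 41.7 CPM in female cells, with 6 of 8 higher. Stellate cell markers summed to 34.3 to 39.5 CPM in male cells and 17.2 to 24.6 CPM in female cells, with 4 of 8 higher and 1 lower. Macrophage markers summed to 149 to 168 CPM in male cells and 79.8 to 99.98 CPM in female cells, a sum carried by Cd68, the 1 of 6 tested members that rose, and their median log2 difference was -0.39. Cholangiocyte markers summed to 28.6 to 34.7 CPM in male cells and 34.2 to 41.2 CPM in female cells, with 2 of 6 higher and 1 lower. No marker of these 5 lists was at 0 in all libraries of either group, and albumin (Alb) ran from 5824 to 18073 CPM over the 13 libraries. The part of these differences in the P450 values was not tested.

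Male cells in ConvR male serum were also set against female cells in ConvR female serum (n = 3 and 2), each in serum of its own sex. Again 1 gene rose and 5 fell, where 33.3% of all genes were called, 15.8% higher and 17.5% lower. Cyp2b10 was 1.76-fold higher in male cells (log2 0.82 ± 0.113, adjusted p = 4.36e-05), at 33.9 ± 3.08 CPM against 19.2 ± 0.972 CPM. Cyp2a4 was 42.3-fold lower (log2 -5.40 ± 0.223, adjusted p = 3.60e-11) and Cyp2b9 17.4-fold lower (log2 -4.12 ± 0.192, adjusted p = 1.54e-10). Cyp2a5 fell by 2.21, Cyp2b13 fell by 1.32 and Por fell by 0.94 on the log2 scale. Nr1i3 differed by -0.19 ± 0.219 and did not pass the test (adjusted p = 0.556). Both comparisons of the sexes share the male libraries and are no independent repeats of each other.

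**Figure D2:**
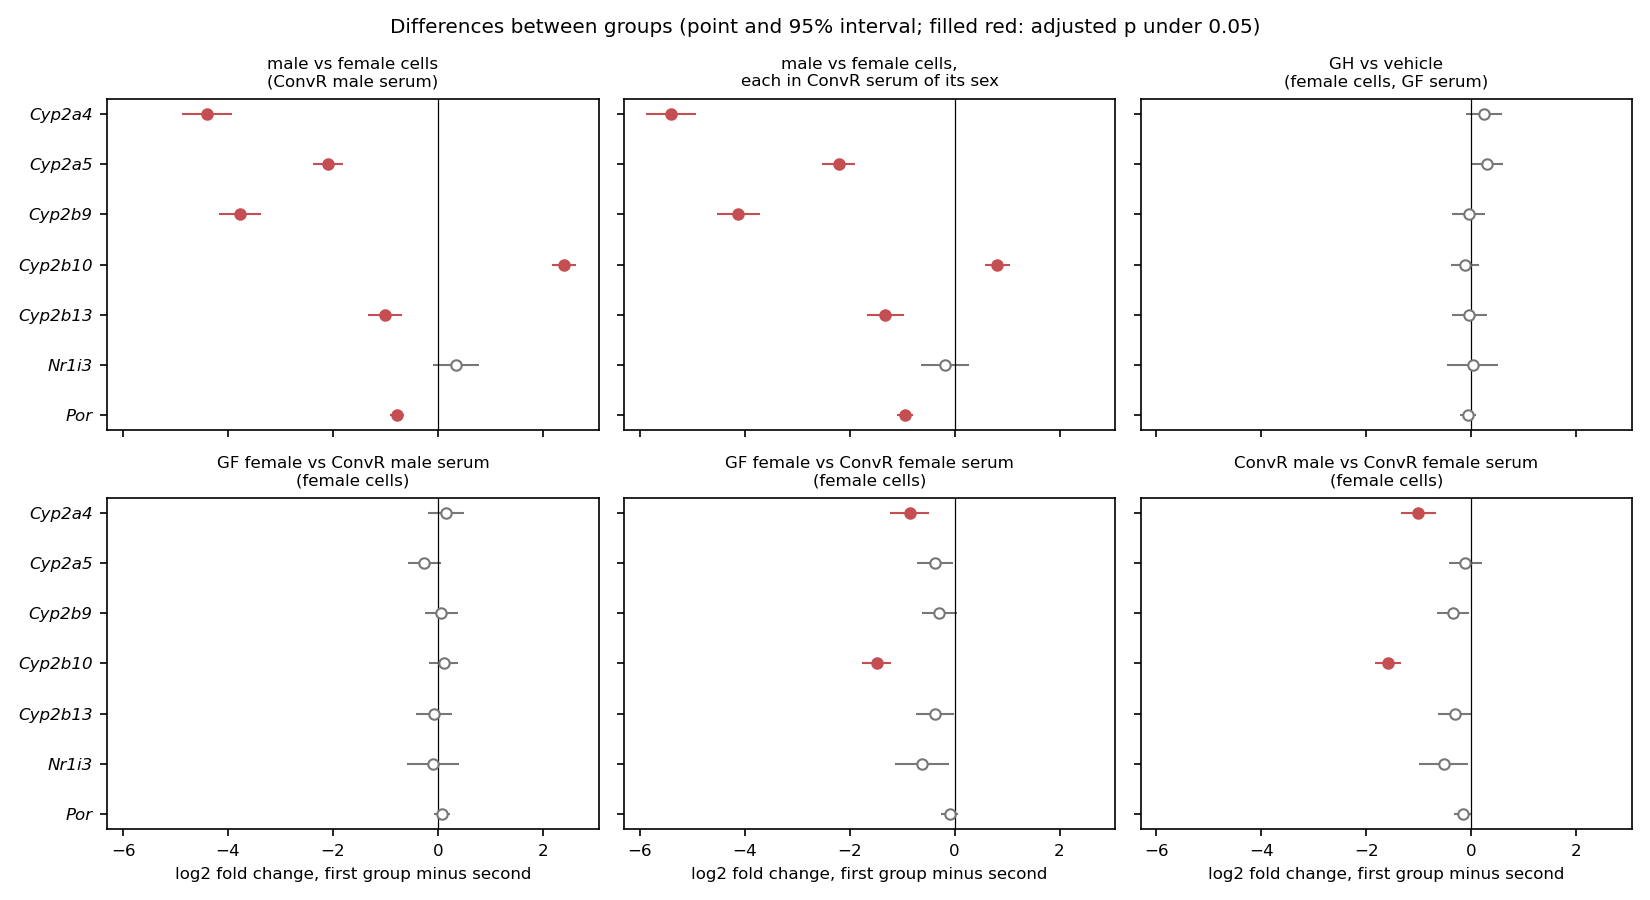
Log2 fold change of each gene (points) with its 95% interval (bars) in 6 comparisons, filled where the adjusted p is under 0.05. Male against female cells give the widest spread, with Cyp2b10 at 2.41 and Cyp2a4 at -4.39 in ConvR male serum, while both serum comparisons against ConvR female serum have Cyp2a4 and Cyp2b10 below 0.

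In female cells, GF female serum against ConvR female serum (n = 2 each) asked about serum of mice without a microbiota. Of the 7 genes, 2 fell and none rose, where 6.41% of all genes were called, 2.86% higher and 3.54% lower. Cyp2b10 averaged 6.89 ± 0.228 CPM in GF serum and 19.2 ± 0.972 CPM in ConvR serum, 2.79-fold lower (adjusted p = 4.72e-05 by edgeR), with both libraries below both of the ConvR group. Cyp2a4 averaged 11.1 ± 1.19 CPM in GF serum and 20.2 ± 2.19 CPM in ConvR serum, 1.81-fold lower (log2 -0.86 ± 0.174, adjusted p = 0.00798 by edgeR). The fall of Cyp2a4 rests in part on 1 library: without GF replicate 3 it was -0.76 with an adjusted p of 0.102. Summed with Cyp2a5, the pair stood at -0.43 (adjusted p = 0.0920).

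The other 5 genes did not pass the test, and each estimate was below 0. Cyp2a5 differed by -0.37 ± 0.159 (adjusted p = 0.189). Its value moved with the replicates of ConvR female serum, which stood at 151 and 111 CPM: it was -0.14 without replicate 2 and -0.58 without replicate 3 (adjusted p = 0.0482). Cyp2a5 also passed when the filter on low counts was left out (-0.38, adjusted p = 0.000977). Cyp2b9 differed by -0.29 ± 0.157, Cyp2b13 by -0.38 ± 0.170 and Por by -0.10 ± 0.0799. Nr1i3 had 1.32 ± 0.0283 CPM in GF serum and 2.03 ± 0.00558 CPM in ConvR serum, a log2 difference of -0.62 ± 0.246 (adjusted p = 0.154), with an interval of -1.14 to -0.10 before adjustment. Tomm40l, which lies over it, fell by 0.38 on the log2 scale (adjusted p = 0.0129, and 0.125 at most over the alternatives). Of the hepatocyte markers, 4 of 10 fell and none rose, where 2.86% of all genes rose and 3.54% fell. Their sums were 11429 to 12038 CPM in GF serum and 11796 to 13686 CPM in ConvR serum. Among cholangiocyte markers 1 of 6 rose, and no tested marker of the other lists was called. The part of these differences in the P450 values was not tested.

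ConvR male serum against ConvR female serum on the same female cells (n = 3 and 2) asked about the sex of the serum donor. Cyp2a4 and Cyp2b10 fell, 2 of the 7, and none rose, where 8.80% of all genes were called, 3.95% higher and 4.85% lower. Cyp2b10 averaged 6.397 ± 0.755 CPM in male serum and 19.2 ± 0.972 CPM in female serum, 3.01-fold lower (adjusted p = 1.36e-06 by edgeR). Cyp2a4 averaged 10.01 ± 0.277 CPM in male serum and 20.2 ± 2.19 CPM in female serum, 2.01-fold lower (adjusted p = 0.000843 by edgeR), and the sum of Cyp2a4 and Cyp2a5 did not pass (log2 -0.20, adjusted p = 0.362). Cyp2a5 differed by -0.11 ± 0.145 (adjusted p = 0.692), and this estimate was 0.12 without ConvR female replicate 2. Cyp2b9 at -0.35 ± 0.143, Cyp2b13 at -0.30 ± 0.154, Nr1i3 at -0.53 ± 0.221 and Por at -0.17 ± 0.0727 did not pass the test. Tomm40l, over Nr1i3, fell by 0.33 (adjusted p = 0.0132), a call lost without ConvR female replicate 2 (0.112). Markers of liver cells moved as well: among hepatocyte markers Tat (-1.11), Cps1 (-0.54) and Asgr1 (-0.48) fell and Serpina1a (0.31) rose, 4 of 10, among cholangiocyte markers Sox9 rose (0.79) and Spp1 fell (-0.70), and of the macrophage markers Cd68 fell (-0.38). The hepatocyte sum was 13048 to 13825 CPM in male serum and 11796 to 13686 CPM in female serum, and the part of these differences in the P450 values was not tested. The sum of Cyp2b9 and Cyp2b13 was at -0.33 with an adjusted p of 0.0492. This comparison and the one before share both libraries of ConvR female serum.

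Set against each other directly, GF female serum and ConvR male serum (n = 2 and 3) gave no call among the 7 genes, where 0.448% of all genes were called (0.184% higher and 0.264% lower), and none of the 7 had an unadjusted p under 0.05 in edgeR's test. The difference of Cyp2b10 was 0.11, with a 95% interval of -0.16 to 0.38 on the log2 scale. That of Cyp2a4 was 0.15, from -0.20 to 0.50, and that of Cyp2a5 was -0.26, from -0.57 to 0.05. The intervals of the other 4 genes also held 0, and a missed threshold does not show that the sera act alike. The interval of Cyp2b10 reaches neither of the differences of -1.48 and -1.59 called for it against ConvR female serum. These comparisons come from the same fit and share libraries, so the interval is no separate check of the sera.

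Growth hormone for 2 h on top of GF female serum (n = 3 against 2) changed none of the 7 genes at the threshold, where 0.586% of all genes were called (0.511% higher and 0.0747% lower), and none had an unadjusted p under 0.05. Cyp2a5 differed by 0.30, with a 95% interval of -0.01 to 0.61 (adjusted p = 0.409), and it passed the test when the filter on low counts was left out (0.31, adjusted p = 0.0127). Cyp2a4 differed by 0.24, from -0.11 to 0.58, with means of 13.1 ± 0.0952 CPM with GH and 11.1 ± 1.19 CPM without. Cyp2b10 differed by -0.12, from -0.39 to 0.14, Cyp2b9 by -0.05, from -0.36 to 0.25, and Cyp2b13 by -0.04, from -0.37 to 0.30. Por differed by -0.06, from -0.22 to 0.09, and Nr1i3, with few counts, by 0.02, from -0.47 to 0.52. Socs2, a feedback inhibitor known to be induced by growth hormone, rose by 0.92 ± 0.119 on the log2 scale in the same libraries (adjusted p = 0.000494 by edgeR).

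GF serum with GH was also set against ConvR female serum (n = 3 and 2), where 2.76% of all genes were called, 1.58% higher and 1.18% lower. Of the 7 genes, 2 fell and none rose. Cyp2b10 averaged 6.33 ± 0.759 CPM with GF serum and GH and 19.2 ± 0.972 CPM in ConvR serum, 3.05-fold lower (adjusted p = 1.04e-06 by edgeR). Cyp2a4, at 13.1 ± 0.0952 CPM against 20.2 ± 2.19 CPM, fell by 0.62 on the log2 scale (adjusted p = 0.0401). This call was lost on leaving out any 1 of the 5 libraries, with adjusted p-values of 0.0667 to 0.253. The other 5 genes did not pass the test, with Nr1i3 at -0.60 ± 0.218 beside a fall of 0.31 in Tomm40l (adjusted p = 0.0389, lost on leaving out any 1 of the 5 libraries).

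Per kilobase of exon, the make-up of the CYP2B family differed between the male and the female donor stock, and between sera within female cells. Cyp2b10 made up 92.05 ± 0.554% of the summed CPM per kb of Cyp2b9, Cyp2b10 and Cyp2b13 in male cells (SD, n = 3). In female cells it made up 34.1 ± 3.68% in GF serum with GH, 35.3 ± 0.858% in GF serum, 33.8 ± 3.03% in ConvR male serum and 54.9 ± 0.282% in ConvR female serum. Cyp2b9 was the largest of the 3 in the first 3 of these female groups, at 42.1%, 41.5% and 40.9% of the sum, and made up 28.3% in ConvR female serum and 1.56% in male cells. The family sum was 17.4 ± 1.52 CPM per kb in male cells and 8.78 ± 0.182, 9.24 ± 0.0812, 8.95 ± 0.685 and 16.6 ± 0.753 CPM per kb in the female groups in the same order. Male cells and female cells in ConvR female serum thus had similar family sums with unlike shares of the members, and Cyp2b10 was the largest in both.

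In the CYP2A pair, Cyp2a5 held most of the signal in every group. Cyp2a4 made up 1.94 ± 1.19% of the summed CPM per kb in male cells, 11.2 ± 1.36% in GF serum with GH, 11.6 ± 2.03% in GF serum, 9.09 ± 1.30% in ConvR male serum and 15.8 ± 4.29% in ConvR female serum. The sum itself was 13.99 ± 0.720 CPM per kb in male cells and between 55.3 ± 3.76 and 74.9 ± 12.4 CPM per kb in the female groups. Por stood at 34.2 ± 0.973 CPM per kb in male cells and between 58.7 ± 1.30 and 65.8 ± 1.91 CPM per kb in female groups. Reads shared between close genes, given above, bear on each of these shares.

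**Figure D3:**
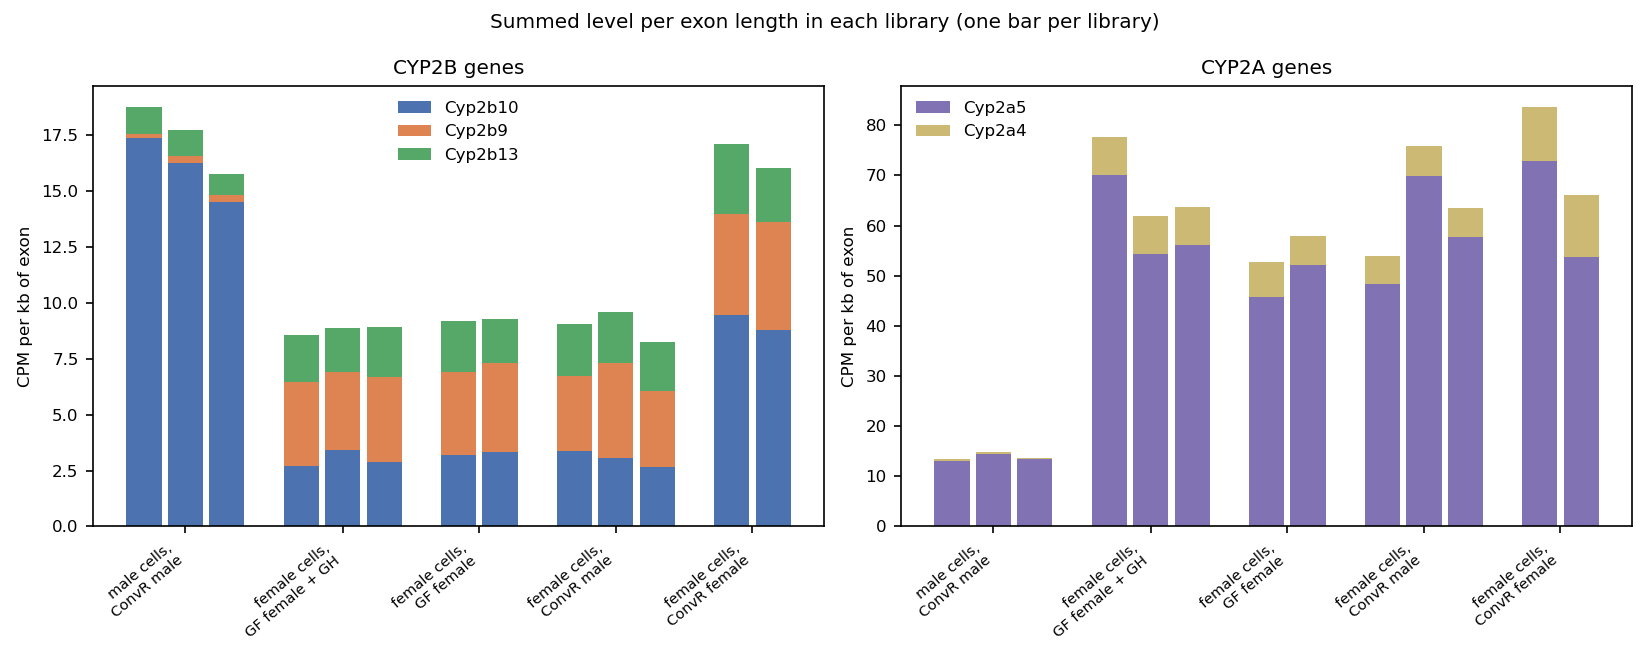
Summed level of the CYP2B genes and of the CYP2A genes in CPM per kb of exon, with 1 bar per library, by group, stacked by gene. The CYP2B sum averages 17.4 in male cells and 16.6 in ConvR female serum, of which Cyp2b10 makes up 92.05% and 54.9%.

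Within the 10 female libraries, which share a donor stock and the groups above, Cyp2b10 went most closely with Xaf1 (Pearson r = 0.97, Spearman rho = 0.76), Ddx28 (r = 0.97) and Arrdc3 (r = 0.96) among genes with a mean count of at least 50. Cyp2a4 went with Bbs10 (r = 0.97), Ahsg, which encodes the plasma protein fetuin-A (r = 0.96), and Azin1 (r = 0.96). Cyp2a5 followed Fabp4, Cyp2c70 and Ehd4 (r = 0.96 each), Cyp2b9 followed Mrpl23-ps1, Klhl22 and Cnpy3 (r = 0.95 to 0.96), and Cyp2b13 followed Lass2, Slc9a8 and Zfp750 (r = 0.92 to 0.94). Nr1i3 followed Rnf43, Cyp2u1 and Zfp692 (r = 0.93 to 0.94), and Por followed Fbxl15, Hjurp and Ddb2 (r = 0.91 to 0.93). Between members, r was 0.86 for Cyp2a4 with Cyp2b10 (rho = 0.50), 0.81 for Cyp2b10 with Nr1i3 (rho = 0.52) and 0.25 for Cyp2a4 with Cyp2a5 (rho = 0.35). These are descriptions over 10 libraries, in which ConvR female serum carries much of the spread of Cyp2b10.

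Genes that neighbour the 5 P450s in the cluster also split by direction between the sexes. Of 5 tested neighbours, 2 rose and 2 fell in male against female cells in ConvR male serum. Among all genes tested, 17.6% rose and 19% fell there. Cyp2f2, a P450 of club cells and periportal hepatocytes, averaged 24.2 ± 1.93 CPM in male cells and 3.04 ± 1.18 CPM in female cells (log2 3.001 ± 0.186), and Cyp2a12 rose by 2.83 ± 0.161. Cyp2a22 fell by 3.81 on the log2 scale, and Cyp2b19, at low counts, fell by 1.44 (adjusted p = 0.0423, lost in 8 of 14 alternatives, among them leaving out any of the 6 libraries). None of the 5 passed the test in GF or ConvR male serum against ConvR female serum, or with GH.

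Other known CAR or PXR targets, 38 tested of 40 listed, held 21 rises and 9 falls in male against female cells in ConvR male serum. Of all genes, 17.6% rose and 19% fell. The median log2 difference of these targets was 0.44, against -0.02 over all genes and 1.34 over the 10 hepatocyte markers. Ugt2b35, a glucuronosyltransferase, averaged 43.2 ± 2.82 CPM in male cells and 4.97 ± 0.648 CPM in female cells (log2 3.11 ± 0.134). Cyp3a25 rose by 3.10 and Cyp2c29 by 2.04. Falls were led by Sult2a1, a bile acid and steroid sulfotransferase at 0.00916 ± 0.0159 CPM in male cells and 0.860 ± 0.315 CPM in female cells, by Cyp3a44 (log2 -4.03 ± 0.158) and by Cyp3a41a (-3.27 ± 0.250). Sult2a1 had few counts, 506 over all libraries, and next to none in male cells. The size of its fall is therefore uncertain, with a log2 value of -8.14 to -5.62 over the alternatives. Cyp2c, Cyp3a, Ugt2b and Sult2a are families of related genes, and the sequence their members share was not measured.

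In GF against ConvR female serum, 2 of these 38 rose and 9 fell, where 2.86% of all genes rose and 3.54% fell. Their median was -0.31 against 0.00 over all genes and -0.40 over the 10 hepatocyte markers. Aldh1a7, an aldehyde dehydrogenase, fell by 1.07 and passed under all 12 alternatives, as did the drug exporter Abcb1a, which rose by 0.86. Tsku fell by 0.97, Ugt2b35 fell by 0.89 and Abcc4, another exporter, rose by 0.72. Tsku was not called without ConvR female replicate 2 or GF replicate 3, Ugt2b35 without ConvR female replicate 2, and Abcc4 without ConvR female replicate 3 or GF replicate 2, with adjusted p-values of at most 0.116, 0.0611 and 0.107. The number that fell was 3 without ConvR female replicate 2, 5 without either GF library and 5 without that library and GH replicate 1, the pair richest in Xist. Hepatocyte markers had a median of -0.003 in ConvR male against female serum. There, 1 of the 38 targets rose and 7 fell at a median of -0.20, where 3.95% of all genes rose and 4.85% fell. The number that fell was 4 without ConvR female replicate 2, and 3 rose without ConvR male serum replicate 2. By gene, Ugt2b35 fell by 1.29, Aldh1a7 by 0.93 and Ugt2b34 by 0.91, and Abcb1a rose by 0.59, each under all 13 alternatives. With GH, 3 rose, where 0.511% of all genes rose and 0.0747% fell. These were Tsku by 0.95, Aldh1a7 by 0.81 and Gadd45b, a stress-response gene, by 0.71. None of these 3 was called without GF replicate 2 or 3 or without GH replicate 1 or 3, with adjusted p-values of at most 0.299, 0.364 and 0.384.

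Partners of CAR in signalling, 26 tested of 27 listed, held 3 rises and 11 falls in male against female cells, where 17.6% of all genes rose and 19% fell. The rises came to 5 without female replicate 3. Gnmt, a methyltransferase, rose by 1.34 ± 0.117 and Nr1i2, which encodes the related receptor PXR, by 0.53 ± 0.143, while Foxo1 (-0.99 ± 0.113) and Rxrg (-0.93 ± 0.244) fell. Mapk3, the kinase ERK1, rose by 0.20 there, by 0.44 in GF and by 0.36 in ConvR male against ConvR female serum. Against ConvR female serum, 2.86% of all genes rose and 3.54% fell in GF serum, and 3.95% and 4.85% in ConvR male serum. Beside these shares, the partners held 3 rises and 2 falls for GF serum and 4 rises and 1 fall for ConvR male serum. These counts were small and moved on leaving out 1 library, with 1 rise without ConvR female replicate 3 or either GF library and 0 falls without ConvR female replicate 2 or either GF library for GF serum. For ConvR male serum there were 2 rises without ConvR female replicate 3 or ConvR male serum replicate 1, and 0 to 3 falls. Nr1i2 fell in both, by 0.70 and by 0.72, and in both it did not pass without ConvR female replicate 2, in GF serum also without either GF library, with adjusted p-values of up to 0.238 and 0.110 over the alternatives. Egfr, whose signal holds CAR in the cytoplasm, rose by 0.29 and by 0.50, and Hsp90ab1, of its cytoplasmic chaperone complex, rose by 0.29 in GF serum. Hnf4a fell by 0.43 in GF serum, and no partner was called with GH. In GF serum Egfr was not called without any 1 of the 4 libraries, Hsp90ab1 without ConvR female replicate 3 or either GF library, and Hnf4a without ConvR female replicate 2 or either GF library (adjusted p of at most 0.228, 0.215 and 0.0837). Mapk3 between the sexes was not called without male replicate 1 or 3 or female replicate 2 (at most 0.162).

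Genes of electron transfer and haem, 20 tested of 21 listed, held 5 rises and 3 falls in male against female cells, where 17.6% of all genes rose and 19% fell. Cyb5, listed under this symbol for cytochrome b5, rose by 0.68 ± 0.0629, where Por fell, together with Blvrb and Pgrmc1 (0.56 each), while the ferredoxin Fdx1 fell by 0.96, Cyb5r1 fell by 0.40 and Cyb5b fell by 0.23. In GF against ConvR female serum, Cyb5 fell by 0.53, Cyb5r1 by 0.27 and Pgrmc1 by 0.26, and none rose. Here 2.86% of all genes rose and 3.54% fell. In ConvR male against ConvR female serum, Cyb5 fell by 0.51, Cyb5r1 fell by 0.29 and Hmox1, haem oxygenase 1, rose by 0.45. There 3.95% of all genes rose and 4.85% fell. The falls in GF serum came to 1 without ConvR female replicate 2 or either GF library. In ConvR male serum they came to 1 without ConvR female replicate 2 or ConvR male serum replicate 1 and to 4 without ConvR male serum replicate 2, and none rose without ConvR female replicate 3. Of these genes, Cyb5 passed under every alternative of all 3 comparisons, and Cyb5r1 in GF serum passed in 4 of 12, and in none without 1 of the 4 libraries (adjusted p of at most 0.303). Pgrmc1 in GF serum was not called without ConvR female replicate 2 or either GF library (at most 0.354). Hmox1 was not called without ConvR female replicate 3 (0.0564), Cyb5r1 in ConvR male serum not without ConvR female replicate 2 or ConvR male serum replicate 1 (at most 0.136), and Cyb5b not without male replicate 1 or 2 or female replicate 2 or 3 (at most 0.0916).

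Regulators of sex-biased P450 expression, 22 tested of 23 listed, held 1 rise and 10 falls in male against female cells, where 17.6% of all genes rose and 19% fell. The growth hormone receptor Ghr fell by 0.82 on the log2 scale and Bcl6, a repressor, by 0.76, and Cebpb rose by 0.38. In GF against ConvR female serum 2 rose and 7 fell, where 2.86% of all genes rose and 3.54% fell. Cish at 0.61 and Bcl6 at 0.56 were among the rises. Nr5a2 at -0.51, Socs2 at -0.50 and Foxa2 at -0.48 were among the falls. Without GF replicate 3 only 1 fell, without GF replicate 2 it was 2 and without ConvR female replicate 2 it was 3, and neither rise was called without both Xist-rich libraries, without either ConvR female library or without GF replicate 2. Each of these 5 was lost on leaving out at least 1 library of either group: Cish for any of the 4 (adjusted p of at most 0.167), Bcl6 for all but GF replicate 3 (0.180), Nr5a2 for ConvR female replicate 2 or GF replicate 3 (0.215), Socs2 for all but ConvR female replicate 3 (0.400) and Foxa2 for all but ConvR female replicate 2 (0.0753). In ConvR male against ConvR female serum 3 rose and 6 fell, but 3 fell without ConvR female replicate 2, and none rose without ConvR female replicate 3 or with only the groups compared in the fit. Among all genes tested in this comparison, 3.95% rose and 4.85% fell. Cish rose by 0.72, Bcl6 by 0.43 and Ghr by 0.37, and Foxa2 fell by 0.64, Nr5a2 by 0.55 and Zfp809 by 0.54. Foxa2 and Zfp809 were called under all 13 alternatives, while Cish was lost without ConvR female replicate 3 (0.0701), Nr5a2 without replicate 2 (0.0728), Bcl6 without either or without ConvR male serum replicate 1 or 3 (at most 0.153), and Ghr without ConvR female replicate 3 or ConvR male serum replicate 2 or 3 (at most 0.321). With GH, Socs2 rose by 0.92, Nfe2l2 rose by 0.29 and Bcl6 fell by 0.72, where 0.511% of all genes rose and 0.0747% fell. Bcl6 was not called without GF replicate 2 (0.216), and Nfe2l2 not without GF replicate 2 or 3 or GH replicate 1 or 3 (at most 0.350).

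**Figure D4:**
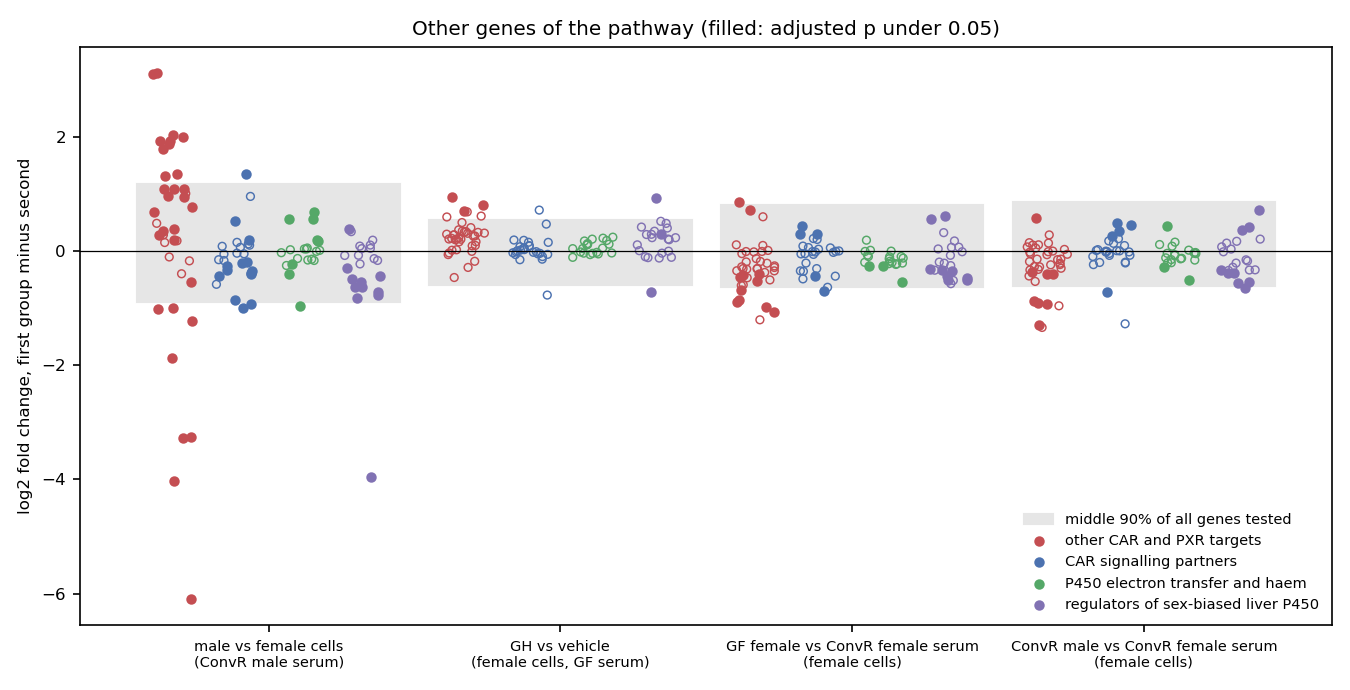
Log2 fold change of each tested gene of 4 lists (points, filled where the adjusted p is under 0.05) in 4 comparisons, with grey bands over the middle 90% of all genes tested. Other CAR and PXR targets spread most between male and female cells, with 21 rises and 9 falls. They lean below 0 in GF and ConvR male against ConvR female serum, with medians of -0.31 and -0.20. Hepatocyte markers, not drawn, had medians of -0.40 and -0.003 there.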

How the data were processed

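Hepatocytes had been plated at 200000 cells per well, left 6 h to attach, and lysed after serum and hormone; stranded libraries came from 250 ng of ribosome-depleted RNA, per the labels' protocols. The authors deposited raw read counts per gene over exons, whole numbers with no scaling. STAR 2.4.0i and mm10 are named per the submitters' processing notes; for the counting, the program, strand setting and annotation were not given in the sources used here. Of 15 labelled samples, 13 were used: 2 columns of the table share a header name and could not be assigned, which leaves 2 of 3 libraries each for GF and ConvR female serum without hormone. Totals ran from 34097400 to 48742274 counts.

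TMM scaling and filterByExpr (minimum count 10) left 17405 genes, all 7 members among them. One edgeR 4.0.16 quasi-likelihood fit of the 5 groups, with no covariate and 8 residual degrees of freedom, gave 7 two-sided comparisons, each with Benjamini-Hochberg adjustment over all genes tested and a threshold of 0.05. Fold changes have the first-named group on top. Standard errors come from the F statistic, and intervals are at 95% without adjustment. CPM per kb uses the union of GENCODE M21 exons. The fit was tested on simulated counts. Alternatives were DESeq2 1.42.0, its size factors, unscaled library sizes, no filter, only the groups compared, a replicate term and each library left out. Counts were also summed within the gene pairs, Cyp2a4 with Cyp2a5 and Cyp2b9 with Cyp2b13.

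The members and lists were chosen with earlier results of these data known. All 7 members are named throughout. From each list, up to 3 called rises and 3 called falls with the largest change are named in 4 comparisons (male against female cells in ConvR male serum, GF and ConvR male against ConvR female serum, and GH), and for likeness the 3 genes with the highest r per member, predicted models left out. Of the lists, only Fdx2 could not be matched; Cyb5a and Adgre1 matched by gene identifier as Cyb5 and Emr1, and Alas1 stands in 2 lists. A few list genes that this rule would name are not reported here.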

Additional observations from a re-analysis of the deposited data

How the results depend on the processing

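Cyp2b10 kept its direction and its call under all alternatives of the 5 comparisons in which it was called, at -1.54 to -1.43 in GF and -1.67 to -1.50 in ConvR male against ConvR female serum, and at 2.32 to 2.49 in male against female cells in ConvR male serum. Over the members' values in all 7 comparisons, 605 kept direction and side of the threshold, 11 lost the call, 5 gained it and 16 changed sign. In this tally the value of a summed gene pair stands for both of its genes. The number of members called in GF against ConvR female serum was 1 with the gene pairs summed. It was 3 without the filter on low counts (Cyp2a5 added) and 1 to 3 on leaving out a library. With GH it was 1 without the filter on low counts. In GF serum with GH against ConvR female serum it was 1 with the replicate block and with the gene pairs summed. It was also 1 on leaving out each of the 5 libraries, or both Xist-rich libraries (ConvR female replicate 2 and GH replicate 1).

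None of the values that changed sign was a call. In ConvR male against female serum Cyp2a5 was 0.12 without the Xist-rich pair and -0.32 to 0.12 on leaving out a library. With GH, Nr1i3 was -0.038 with the replicate block, -0.00249 with unscaled library sizes, -0.13 without the Xist-rich pair and -0.13 to 0.11 on leaving out a library, Cyp2b13 was -0.13 to 0.073 and Por -0.14 to 0.030 on leaving out a library. In GF against ConvR male serum, the sum of Cyp2a4 and Cyp2a5 was -0.23, against the sign of Cyp2a4 alone. The sum of Cyp2b9 and Cyp2b13 was 0.013, against the sign of Cyp2b13 alone. On leaving out a library in this comparison, Cyp2b13 was -0.18 to 0.025 and Por -0.019 to 0.16. In GF serum with GH against ConvR female serum, Cyp2a5 was 0.038 without the Xist-rich pair and -0.28 to 0.16 on leaving out a library. The cause was not tested. A summed gene pair is dominated by the gene with more counts.

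The numbers of all genes called moved by more than 1.5 times in places. Against 1115 for GF and 1532 for ConvR male against ConvR female serum, they were 611 and 468 with only the groups compared and 367 and 825 without the Xist-rich pair, and 1731 for GF serum without a filter. For GH, 102 became 796 without a filter, 255 in DESeq2, 156 with only the groups compared and 62 with the block. For GF against ConvR male serum, 78 became 622 without a filter, 296 in DESeq2, 286 without the Xist-rich pair and 31 with the block. For GF serum with GH against ConvR female serum, 481 became 922 without a filter, 733 in DESeq2, 222 with only the groups compared and 251 without the Xist-rich pair. Leaving out 1 library gave 274 to 1225 and 663 to 1652 for the first 2 of these 5 comparisons, and 33 to 190, 2 to 160 and 232 to 413 for the others. Deviations of same-numbered libraries from their group means had r from -0.17 to 0.13 across genes. Within groups of 2 or 3 libraries these deviations are tied to each other, so they cannot decide whether replicates were paired. The highest r was 0.25, between GH replicate 1 and ConvR female replicate 2, the Xist-rich pair. With the replicate number as a block, 6 members were called in each comparison of male with female cells. The main fit called 36.7% and 33.3% of all genes there. GF and ConvR male against ConvR female serum had 2 each (6.41% and 8.80% of all genes in the main fit). GF serum with GH against ConvR female serum had 1 (2.76%). GH in GF serum and GF against ConvR male serum had none (0.586% and 0.448%).

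Depth limits Nr1i3 (44 to 98 counts) and, in male cells, Cyp2a4 and Cyp2b9 (5 to 22 counts). Groups of 2 libraries make the serum comparisons the least certain.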
